A study of Homo sapiens with 24 samples.

Results

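YAP1 and TEAD1, the core regulators at the end of the Hippo pathway, and 8 genes known as their targets or as pathway components were followed in 2 osteosarcoma lines treated with THZ2. The 10 genes are CCN1, CCN2, ANKRD1, AMOTL2, LATS2, FJX1, ASAP1, FRMD6, YAP1 and TEAD1. They were chosen by name, 10 of the 18132 genes that the array reads alone, and are read by the 30 probe sets that list no other gene symbol. U2-OS and SJSA-1 are established human osteosarcoma lines, and SJSA-1 is known for its amplified MDM2 gene. For 6 h cells of each line were kept in THZ2 at 25, 100 or 400 nM or in DMSO, its solvent. THZ2 binds CDK7 covalently and blocks it, a kinase that phosphorylates RNA polymerase II as part of TFIIH. Each of the 8 groups was measured on 3 Affymetrix PrimeView arrays. All groups share the medium and the single exposure time, and each line stands for itself as a model of osteosarcoma. The labels do not say whether the 3 arrays of a group came from separate cultures, so the p-values measure the spread between these arrays, which may be technical.

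The Hippo pathway is a chain of kinases that keeps the coactivators YAP1 and WWTR1 (TAZ) out of the nucleus. STK3 and STK4 activate the kinases LATS1 and LATS2, which phosphorylate YAP1 and TAZ, while FRMD6 and other membrane proteins act upstream of the kinases. When the kinases are off, as in spread cells on a stiff matrix, YAP1 enters the nucleus and works through DNA-binding TEAD proteins such as TEAD1. CCN1 and CCN2, secreted matrix proteins, and ANKRD1, an ankyrin repeat protein, are the targets most used to read YAP1 activity. LATS2 and AMOTL2 are targets that in turn restrain YAP1. Much of the binding by YAP1 and TEAD lies at distant enhancers, with CCN1, CCN2 and ANKRD1 among the genes bound close to their start.

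The promoters of CCN2 and ANKRD1 are shown because both are textbook TEAD targets that moved differently here, and that of FJX1 because FJX1 fell by the most in U2-OS at 400 nM after FRMD6. Each run is the 250 bases before the RefSeq start, read on the strand of the gene from build GRCh38.p14, and capitals mark the TEAD core motif GGAATG or its reverse complement CATTCC. The CCN2 window lies at chr6:131951373-131951622 on the minus strand, the ANKRD1 window at chr10:90921088-90921337 on the minus strand and the FJX1 window at chr11:35618210-35618459 on the plus strand. Each window ends at the base before the annotated start, upstream of the first exon.
CCN2: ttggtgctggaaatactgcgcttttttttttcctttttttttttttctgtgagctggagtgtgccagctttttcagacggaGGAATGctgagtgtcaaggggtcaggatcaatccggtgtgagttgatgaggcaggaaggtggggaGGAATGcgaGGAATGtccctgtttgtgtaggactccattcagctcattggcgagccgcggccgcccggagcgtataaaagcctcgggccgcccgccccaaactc
ANKRD1: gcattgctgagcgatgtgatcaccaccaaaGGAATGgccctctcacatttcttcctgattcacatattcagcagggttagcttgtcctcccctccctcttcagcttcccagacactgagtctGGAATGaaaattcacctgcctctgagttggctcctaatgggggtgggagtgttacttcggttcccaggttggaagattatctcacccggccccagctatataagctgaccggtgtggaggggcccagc
FJX1: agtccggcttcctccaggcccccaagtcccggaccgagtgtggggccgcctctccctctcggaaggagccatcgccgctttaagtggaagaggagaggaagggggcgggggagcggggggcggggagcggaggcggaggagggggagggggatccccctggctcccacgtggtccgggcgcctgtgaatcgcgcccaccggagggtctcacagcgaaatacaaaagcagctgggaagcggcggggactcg
CCN2 held 3 copies of the motif, beginning at -169, -104 and -95 from the start, and ANKRD1 held 2, at -220 and -128. No copy lies in the FJX1 window. Over all 35114 RefSeq windows of this length, 11.9% held the motif on either strand. There were 8 windows for 7 of the 10 genes, 2 of them for AMOTL2, and 4 held the motif, those of CCN2, ANKRD1 and YAP1 and 1 of AMOTL2. The AP-1 motif TGAGTCA or TGACTCA, found in 4.2% of all windows, and the CArG box, found in 1.16%, were in 0 of the 8. A match to 6 letters is a description of the sequence and does not show that a factor binds there.

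The values are deposited intensities on a linear scale, and changes below are differences of log2(intensity + 16), fitted with limma over all genes and given as ± the standard error. The terms "rose" and "fell" are used where the Benjamini-Hochberg adjusted p was under 0.05 over 16175 genes. The constant of 16 makes the change of a dim gene smaller than its ratio of intensities. The array medians were 33.5 to 34.5 for the 9 U2-OS arrays up to 100 nM, 36.6 to 37.3 for the 3 at 400 nM, and 23.4 to 25.5 for all 12 of SJSA-1. Pairs of arrays within these sets held up to 5.47% identical values, and pairs across them at most 0.00405%, so they were taken as normalized apart. The 400 nM dose in U2-OS and its normalization therefore cannot be told apart, nor can levels of the 2 lines. The poly-A spike-in transcripts averaged 5.42 to 5.43 (log2) with DMSO and 5.88 to 5.95 at 100 nM in U2-OS, and 6.40 to 7.18 with DMSO and 7.31 to 7.46 at 100 nM in SJSA-1. At 400 nM they averaged 5.65 to 6 in U2-OS and 7.70, 8.84 and 7.18 on the 3 SJSA-1 arrays. Spike-in centring therefore moves these 3 SJSA-1 arrays by unequal amounts. The part of the spike-ins in the changes was not tested beyond the scaling alternatives. Of 10 mesenchymal and bone markers 8 to 10 reached the dim limit of 12.73 in each group, with VIM at group means of 6608 to 8464. One protocol field in the labels names nervous tissue and another extraction kit. Of 9 nervous tissue markers on the array the brightest was SYP at a group mean of at most 171, and their sum was 484 to 524 with DMSO and 593 to 664 at 400 nM in U2-OS, against 194 to 203 and 253 to 280 in SJSA-1. Of 8 blood and immune markers 4 to 6 reached the dim limit, with HBB at group means of 48.2 to 90.1, CD68 at 47.3 to 78.9 and TYROBP at 38.1 to 68.5, while PTPRC stayed at or under 6.51 and LYZ at or under 7.10. Their sum was 262 to 270.1 with DMSO and 287 to 327 at 400 nM in U2-OS, against 177 to 197 and 252 to 291 in SJSA-1. Sums of 8 epithelial markers were 3096 to 3219 with DMSO and 3434 to 3868 at 100 nM in U2-OS, and 3539 to 4715 and 4641 to 5273 in SJSA-1. KRT8 and KRT18 made up most of these sums, with EPCAM at 33.8 to 98.7. Sums of 4 endothelial markers were at most 164. Whether these marker levels bear on the 10 genes was not tested.

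Most of the 10 genes fell at 100 and 400 nM in both lines, while YAP1 itself passed at no dose in the main fit. That fit took all 24 arrays on the deposited scaling without a replicate block. Some alternatives called a fall of YAP1 at 400 nM in U2-OS or in SJSA-1, as given below. In U2-OS, 8 of 10 fell at 100 nM and 7 at 400 nM, against 22.2% and 25% of all genes tested. In SJSA-1, 8 fell at each of these doses, against 25.1% and 24.9% of all genes. None of the 10 rose in U2-OS, where 19.8% and 48.4% of all genes rose at these doses. In SJSA-1 CCN2 rose at 100 nM, where 24.4% of all genes did, and none of the 10 rose at 400 nM, where 41.4% did. Of the 10 genes, 8 fell in both lines at 100 nM, all but CCN2 and YAP1, and 16.8% of all genes fell in both. At 400 nM the number was 6, against 17.1% of all genes. The median change of the 10 was -0.80 at 100 nM and -0.64 at 400 nM in U2-OS, where the median of all genes was 0.058 and 0.15. In SJSA-1 it was -0.65 and -1.01, with medians of all genes of 0.057 and 0.10. Falls of at least 2-fold numbered 3 and 4 of 10 in U2-OS, against 4.08% and 6.92% of all genes, and 4 and 5 in SJSA-1, against 6.2% and 8.51%. At 25 nM 0 of 10 passed in U2-OS, where limma called 13 genes in all (0.0804%), while 2 of the 10, FJX1 and FRMD6, had an unadjusted p under 0.05. In SJSA-1 at 25 nM FJX1 alone fell, where 6.28% of all genes did. The genes were proposed with earlier results of these data known, so the counts describe them and do not test the pathway. In RNA from a whole culture, fewer cells that express a gene and less of its RNA per cell cannot be told apart.

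**Figure D1:**
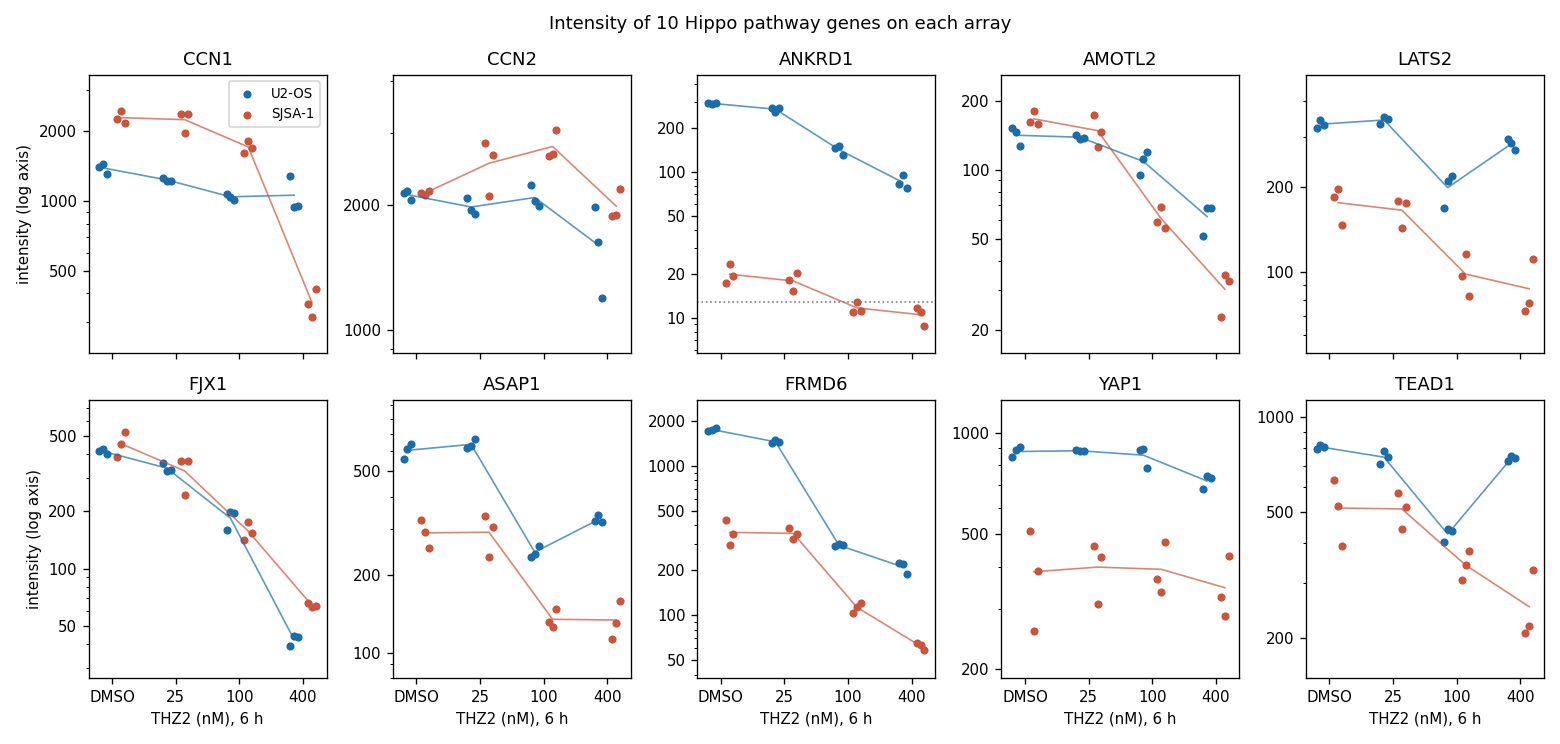
Intensity (log axis, a different range in each panel) of the brightest probe set of each of the 10 genes on all 24 arrays, by THZ2 dose in nM after 6 h; points are arrays, lines join group means, and the dotted line in the ANKRD1 panel is the intensity of 12.73 under which a gene counted as dim. FRMD6 and FJX1 drop in both lines from 100 nM on, CCN1 drops mainly in SJSA-1 at 400 nM, and the YAP1 groups overlap in SJSA-1.

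The CCN genes encode secreted proteins that bind integrins and matrix, and the pair split by line and by dose. CCN1 on the U2-OS arrays read 1406, 1449 and 1315 with DMSO, 1258, 1222 and 1223 at 25 nM, 1078, 1037 and 1016 at 100 nM and 1280.2, 946 and 956 at 400 nM. The 3 arrays at each dose lay below the 3 DMSO arrays, and CCN1 fell, with changes of -0.41 ± 0.097 at 100 nM (adjusted p = 0.00127) and -0.40 ± 0.097 at 400 nM (adjusted p = 0.000637). SJSA-1 arrays gave 2257, 2436 and 2179.8 with DMSO, 2385, 1965 and 2385 at 25 nM, 1618, 1820.3 and 1698 at 100 nM and 359.5, 317 and 419 at 400 nM. There CCN1 fell, with changes of -0.42 ± 0.097 at 100 nM (adjusted p = 8e-04) and -2.60 ± 0.097 at 400 nM (adjusted p = 1.37e-18), a ratio of mean intensities of 6.27. The call at 100 nM was lost with arrays centred on their median, at -0.16. The step from 100 to 400 nM in SJSA-1, at -2.19 ± 0.097, was the largest among the 10 genes in that line.

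CCN2 fell less in that step, at -0.48 ± 0.11 (adjusted p = 0.00195). Its U2-OS arrays read 2142, 2165 and 2065 with DMSO, 2084, 1956 and 1911 at 25 nM, 2236, 2045 and 1991 at 100 nM and 1985, 1629 and 1196 at 400 nM. The 400 nM arrays spread widely, and CCN2 fell there, at -0.43 ± 0.11 (adjusted p = 0.00128), while 100 nM gave -0.024 ± 0.11 (adjusted p = 0.874). In SJSA-1 CCN2 read 2149.8, 2120.2 and 2165 with DMSO, 2837, 2106 and 2647 at 25 nM, 2628, 2665 and 3040.3 at 100 nM and 1885, 1898 and 2195 at 400 nM. All 100 nM arrays lay above all DMSO arrays, and CCN2 rose by 0.37 ± 0.11 (adjusted p = 0.00874), the 1 rise among the 10 genes. That rise turned to -0.16 with arrays centred on the spike-ins, and its call was lost without SJSA-1 100 nM replicate 3, at 0.30 (adjusted p = 0.0529). At 400 nM CCN2 was back at -0.11 ± 0.11 (adjusted p = 0.394), with a 95% interval from -0.34 to 0.12, and it fell there with spike-in centring, at -1.16 (adjusted p = 0.00117).

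ANKRD1, a nuclear and sarcomeric ankyrin repeat protein best known from heart muscle, fell with dose in U2-OS. Its U2-OS arrays read 295, 292 and 299 with DMSO, 275, 259 and 273 at 25 nM, 145, 150.1 and 131 at 100 nM and 82.2, 94.6 and 77.5 at 400 nM. No array at 100 or 400 nM reached the DMSO range, and ANKRD1 fell, with changes of -0.98 ± 0.082 (adjusted p = 8.54e-11) and -1.63 ± 0.082 (adjusted p = 6.74e-16). In SJSA-1 the gene was low at every dose, at 17.1, 23.3 and 19.2 with DMSO, 18.1, 15.1 and 20.3 at 25 nM, 11.0, 12.8 and 11.2 at 100 nM and 11.6, 10.9 and 8.82 at 400 nM. The group means at 100 and 400 nM, 11.7 and 10.5, lay under the dim limit of 12.73, so only a bound holds there. ANKRD1 was at least 1.56-fold lower at 100 nM (adjusted p = 0.000482) and at least 1.56-fold lower at 400 nM (adjusted p = 5.94e-05). This bound sets each dim array to at least 12.73.

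FJX1, the human homologue of the fly gene four-jointed, encodes a secreted regulator of cell polarity signals. On the U2-OS arrays it read 416, 427 and 401 with DMSO, 358, 326 and 330.3 at 25 nM, 160.0, 198 and 195 at 100 nM and 39.3, 44.1 and 43.9 at 400 nM. Each dose lay below the one before without overlap, and the change against DMSO was -1.11 ± 0.12 at 100 nM (adjusted p = 1.23e-08) and -2.88 ± 0.12 at 400 nM (adjusted p = 1.15e-17). SJSA-1 gave 385, 455 and 523 with DMSO, 367, 244 and 369.6 at 25 nM, 142, 176 and 154 at 100 nM and 65.8, 63.1 and 63.6 at 400 nM. FJX1 there changed by -0.47 ± 0.12 at 25 nM (adjusted p = 0.0114), -1.43 ± 0.12 at 100 nM (adjusted p = 5.71e-11) and -2.54 ± 0.12 at 400 nM (adjusted p = 1.66e-16). The 25 nM call rested on single arrays, since it was lost without SJSA-1 DMSO replicate 3, at -0.37, and without SJSA-1 25 nM replicate 2, at -0.28. The ratio of mean intensities between DMSO and 400 nM was 9.77 in U2-OS and 7.08 in SJSA-1.

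ASAP1, an Arf GTPase-activating protein of focal adhesions, reached its lowest level in U2-OS at 100 nM on its brightest probe set. Its arrays there read 559, 613 and 637 with DMSO, 616, 626 and 665 at 25 nM, 234, 241 and 258 at 100 nM and 321, 338 and 318 at 400 nM. ASAP1 fell, with changes of -1.25 ± 0.11 (adjusted p = 2.56e-10) and -0.86 ± 0.11 (adjusted p = 1.12e-07), with all treated arrays at these doses below the DMSO arrays. SJSA-1 arrays read 324, 292 and 252 with DMSO, 335, 234 and 304 at 25 nM, 131, 125 and 147 at 100 nM and 113, 129.8 and 158 at 400 nM. ASAP1 fell there too, at -1.02 ± 0.11 (adjusted p = 1.02e-08) and -1.04 ± 0.11 (adjusted p = 5.89e-09), and the step between these doses was -0.017 ± 0.11 (adjusted p = 0.929).

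Among the genes that restrain YAP1, AMOTL2, an angiomotin that holds YAP1 at cell junctions, fell further in SJSA-1 than in U2-OS on its brightest probe set. Its U2-OS arrays read 152, 145 and 127 with DMSO, 142, 136 and 138 at 25 nM, 94.9, 111 and 119.9 at 100 nM and 51.1, 68.2 and 68.1 at 400 nM. The call at 100 nM, at -0.34 ± 0.12 (adjusted p = 0.0198), was lost without U2-OS DMSO replicate 1, at -0.29, without DMSO replicate 2, at -0.32, and without 100 nM replicate 1, at -0.26. It was also lost with median centring, at -0.20, with joint quantile normalization, at -0.23, and with the mean of its probe sets, at -0.063. AMOTL2 also fell at 400 nM, at -1.01 ± 0.12 (adjusted p = 1.09e-08). SJSA-1 arrays read 162, 179.8 and 158 with DMSO, 172, 125 and 146 at 25 nM, 58.9, 68.6 and 55.7 at 100 nM and 22.8, 34.8 and 32.7 at 400 nM. The arrays at 100 and 400 nM lay below all DMSO arrays, with changes of -1.25 ± 0.12 (adjusted p = 3.96e-10) and -1.99 ± 0.12 (adjusted p = 1.13e-14).

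LATS2, the kinase that phosphorylates YAP1, fell in both lines at 100 nM and parted at 400 nM. U2-OS arrays read 321, 344 and 330.3 with DMSO, 332, 352 and 346 at 25 nM, 168, 210.1 and 218 at 100 nM and 295, 286 and 269 at 400 nM. LATS2 fell at 100 nM, at -0.70 ± 0.12 (adjusted p = 3.78e-05), and 400 nM gave -0.22 ± 0.12 (adjusted p = 0.116) with a 95% interval from -0.47 to 0.037. It passed there with spike-in centring (-0.61, adjusted p = 0.0381), with joint quantile normalization (-0.32, adjusted p = 0.011) and with the U2-OS arrays alone (-0.22, adjusted p = 0.00916). With the mean of its probe sets the change there had the other sign, at 0.15, and did not pass (adjusted p = 0.0998). SJSA-1 arrays read 184, 197 and 147 with DMSO, 179, 143 and 175 at 25 nM, 97.0, 116 and 82.7 at 100 nM and 73.0, 78.2 and 111 at 400 nM. All arrays at the upper 2 doses lay below the DMSO arrays, and LATS2 fell, with changes of -0.74 ± 0.12 (adjusted p = 1.39e-05) and -0.90 ± 0.12 (adjusted p = 6.35e-07).

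FRMD6, a FERM domain protein that acts upstream of the Hippo kinases, fell by the most of the 10 genes at 100 nM in both lines on its brightest probe set. Its U2-OS arrays read 1722, 1745 and 1798 with DMSO, 1421, 1488 and 1443 at 25 nM, 289, 298 and 294 at 100 nM and 224, 219 and 189.7 at 400 nM. At 25 nM all 3 arrays already lay below the DMSO arrays, but -0.27 ± 0.098 did not pass over all genes (adjusted p = 0.747). FRMD6 fell, with changes of -2.51 ± 0.098 at 100 nM (adjusted p = 1.36e-17) and -2.97 ± 0.098 at 400 nM (adjusted p = 1.14e-19), ratios of mean intensities of 5.97 and 8.32. SJSA-1 arrays read 434, 294 and 349.7 with DMSO, 385, 324 and 352 at 25 nM, 104, 115 and 121 at 100 nM and 65.3, 63.1 and 58.5 at 400 nM. FRMD6 fell there as well, at -1.52 ± 0.098 (adjusted p = 2.33e-13) and -2.24 ± 0.098 (adjusted p = 3.1e-17), with no overlap between these doses and DMSO.

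YAP1, the coactivator itself, passed at no dose in either line on its brightest probe set in the main fit. U2-OS arrays read 845, 886 and 903 with DMSO, 887, 882 and 882 at 25 nM, 887, 896 and 788 at 100 nM and 680.0, 744 and 732 at 400 nM. The arrays at 100 nM overlapped the DMSO arrays, at -0.037 ± 0.16, and those at 400 nM lay below them, at -0.28 ± 0.16 (adjusted p = 0.116). That change in U2-OS passed with joint quantile normalization (-0.44, adjusted p = 0.0125), with the replicate block (-0.28, adjusted p = 0.0268) and with the U2-OS arrays fitted alone (-0.28 ± 0.050, adjusted p = 3.2e-05). The main fit pools the spread of both lines. On the log2 scale the SD of YAP1 within a group was 0.0051 to 0.10 in U2-OS and 0.24 to 0.47 in SJSA-1. In SJSA-1 the replicates spread widely, at 512, 259.6 and 391 with DMSO, 461, 311 and 428 at 25 nM, 369.6, 338 and 474 at 100 nM and 326, 286 and 431 at 400 nM. Every treated group overlapped the DMSO arrays, with changes of 0.059 ± 0.16 at 100 nM and -0.12 ± 0.16 at 400 nM. At 400 nM the 95% interval of the main fit spanned -0.62 to 0.048 for U2-OS and -0.45 to 0.21 for SJSA-1. A fall of the size seen for LATS2 in SJSA-1 lay outside both. These intervals hold only for the deposited scaling and this probe set, and do not exclude such a fall under other scalings. Without SJSA-1 DMSO replicate 2, the dimmest YAP1 array, the 400 nM change was -0.37 and passed (adjusted p = 0.0335). With arrays centred on the spike-ins YAP1 fell in SJSA-1 at 400 nM, at -1.08 (adjusted p = 0.00333), and with the mean of its probe sets it fell there at -0.25 (adjusted p = 0.0218).

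TEAD1, the DNA-binding partner of YAP1, had its lowest U2-OS level at 100 nM on its brightest probe set. Its U2-OS arrays read 793, 815 and 808 with DMSO, 709, 784 and 749 at 25 nM, 402, 442 and 437 at 100 nM and 729, 752 and 744 at 400 nM. TEAD1 fell at 100 nM, at -0.89 ± 0.14 (adjusted p = 3.95e-06), and at 400 nM the change was -0.12 ± 0.14 (adjusted p = 0.444), which passed with the U2-OS arrays alone (adjusted p = 0.0319). With the mean of its probe sets the 400 nM change had the other sign, at 0.094 (adjusted p = 0.284). SJSA-1 arrays read 635, 523 and 391 with DMSO, 576, 443 and 519 at 25 nM, 304, 340.1 and 377 at 100 nM and 208, 218 and 329 at 400 nM. TEAD1 fell there at both doses, at -0.56 ± 0.14 (adjusted p = 0.00121) and -0.99 ± 0.14 (adjusted p = 4.48e-07), and the call at 100 nM was lost with the mean of its probe sets, at -0.16.

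**Figure D2:**
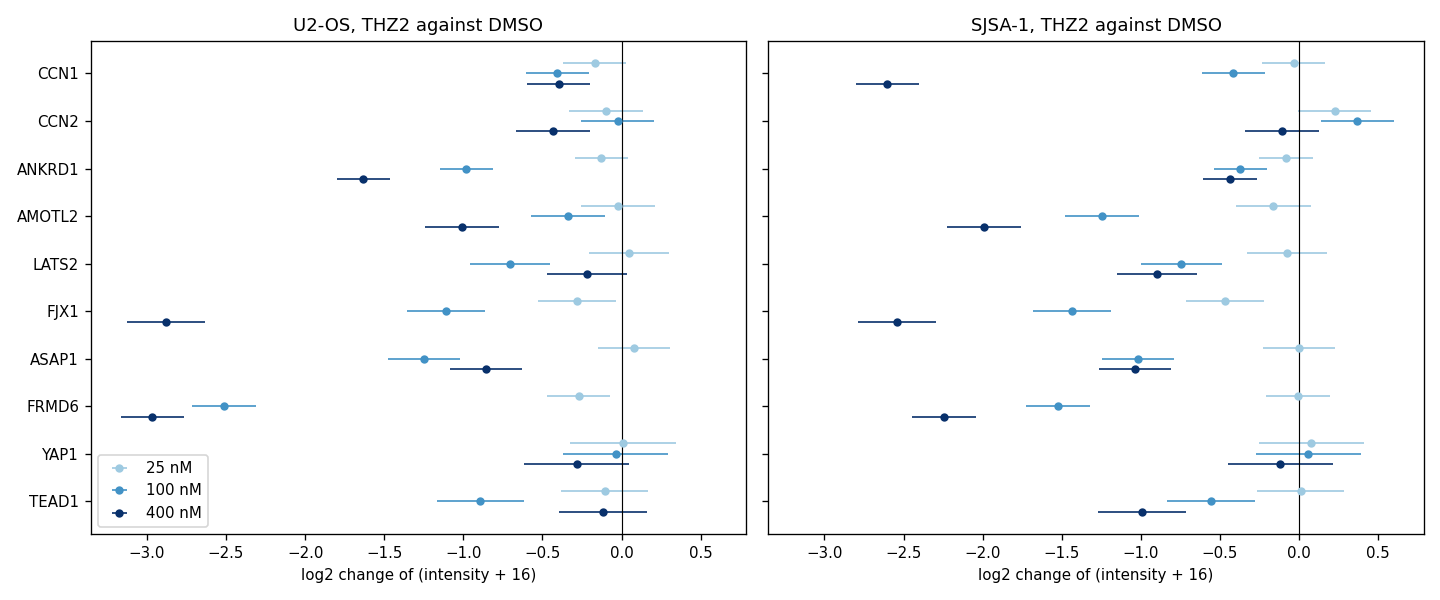
Change of each gene at 25, 100 and 400 nM THZ2 against DMSO, as the difference of log2(intensity + 16) with its 95% interval from limma (n = 3 arrays per group), for U2-OS and SJSA-1. Most intervals at 25 nM include 0, and at 400 nM FRMD6 and FJX1 in U2-OS and CCN1 and FJX1 in SJSA-1 lie farthest below it.

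Neighbouring doses were compared within each line. From 25 to 100 nM 8 of the 10 genes fell in U2-OS, against 23.3% of all genes, and 8 in SJSA-1, against 23.1%. From 100 to 400 nM in SJSA-1, 6 fell, against 11.7% of all genes, among them CCN2, which this step returned from its rise at 100 nM to near the DMSO level. They also included CCN1 at -2.19 ± 0.097 and FJX1 at -1.11 ± 0.12, while ANKRD1, LATS2, ASAP1 and YAP1 did not pass. In U2-OS the step from 100 to 400 nM crosses the normalization sets. FJX1 stood at -1.77 ± 0.12 there, and 5 of the 10 genes fell, against 20.3% of all genes. TEAD1 rose by 0.78 ± 0.14, LATS2 by 0.49 ± 0.12 and ASAP1 by 0.40 ± 0.11 in that step, where 44.4% of all genes rose. With spike-in centring the rises of LATS2 (0.58, adjusted p = 0.0511) and ASAP1 (0.49, adjusted p = 0.12) did not pass, nor with joint quantile normalization that of ASAP1 (0.23, adjusted p = 0.0535).

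The response of single genes differed between the lines, which the contrast of the 2 dose effects tested directly. At 100 nM 3 of the 10 genes differed, against 16.9% of all genes, at 400 nM 6, against 45.9%, and at 25 nM 0, against 1.09%, with 0 of the 10 under an unadjusted p of 0.05. The count at 400 nM lay near the share of all genes. The difference below is the change in SJSA-1 minus that in U2-OS, on the brightest probe set of each gene. At 100 nM AMOTL2 fell further in SJSA-1, at -0.91 ± 0.16 (adjusted p = 0.000154), while FRMD6, at 0.99 ± 0.14 (adjusted p = 5.55e-06), fell further in U2-OS. At 400 nM CCN1 differed most, at -2.21 ± 0.14 (adjusted p = 6.12e-13). AMOTL2 at -0.99 ± 0.16, TEAD1 at -0.88 ± 0.19 and LATS2 at -0.68 ± 0.18 also fell further in SJSA-1. Another AMOTL2 probe set gave 0.09 in U2-OS and 0.03 in SJSA-1 at 100 nM, and 0.04 and 0.05 at 400 nM. Another TEAD1 probe set gave 0.38 in U2-OS and 0.23 in SJSA-1 at 400 nM, while a second of LATS2 rose in U2-OS and fell in SJSA-1. FRMD6 at 0.72 ± 0.14 fell further in U2-OS on its brightest probe set, while its other probe set gave -1.25 in U2-OS and -1.28 in SJSA-1. ANKRD1 counts among the genes that differed, at 0.61 ± 0.12 (adjusted p = 0.000349) at 100 nM and 1.20 ± 0.12 at 400 nM. Its SJSA-1 levels at both doses lay under the dim limit, so the fall there is known only as a bound and these differences do not show in which line it fell further. The 100 nM difference of ANKRD1 was also lost with a constant of 1, at 0.34 (adjusted p = 0.198). With arrays centred on the spike-ins the calls of AMOTL2 at 100 nM, at -0.77, and of FRMD6 at 100 and 400 nM, at 1.09 and 0.53, were lost. For YAP1 the difference was 0.10 ± 0.23 at 100 nM, with a 95% interval from -0.37 to 0.57. All 400 nM differences also carry the separate normalization of the U2-OS arrays at that dose, which cannot be told apart from the dose.

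**Figure D3:**
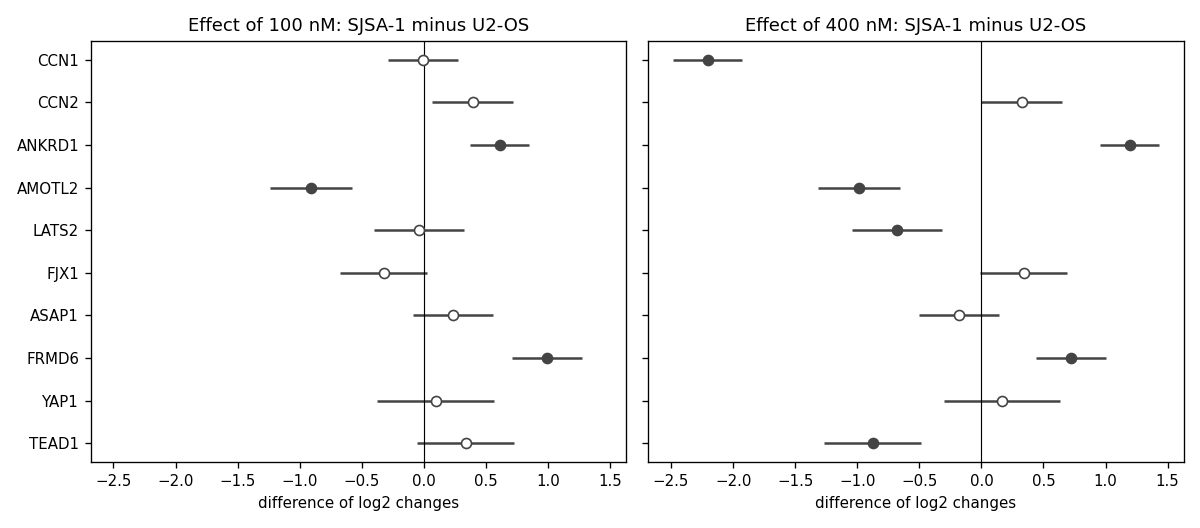
Line difference of the response to 100 nM and to 400 nM THZ2 (SJSA-1 minus U2-OS, log2 scale) with 95% intervals from limma; filled points had an adjusted p under 0.05 over all genes. Each point is the brightest probe set of a gene. Points left of 0 fell further in SJSA-1, CCN1 at 400 nM lies farthest out at -2.21, and the ANKRD1 points rest on SJSA-1 levels under the dim limit.

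Most genes are read by several probe sets, which aim at different stretches of the transcript, and not all of them went the same way. All 30 passed the filter, and with each probe set tested by itself over 37944 probe sets, 13 fell and 1 rose at 100 nM in U2-OS, where 18.9% and 17.6% of all did. At 400 nM in U2-OS 15 fell and 3 rose, against 22.7% and 48.4%. In SJSA-1 17 fell and 4 rose at 100 nM, against 22.5% and 25.2%, and 19 fell and 2 rose at 400 nM, against 23.4% and 36%. Both probe sets of CCN1 gave -2.60 in SJSA-1 at 400 nM. The 3 probe sets of CCN2 all rose in SJSA-1 at 100 nM, by 0.37 to 0.60, and all fell in U2-OS at 400 nM, with changes of -0.43 to -0.88. At 400 nM in SJSA-1 the dimmest of them fell, at -0.35, and the others did not pass. FRMD6 fell on both probe sets at both doses, and the dimmer gave -0.82 and -1.25 in U2-OS and -0.29 and -1.28 in SJSA-1. All 4 probe sets of ASAP1 fell in U2-OS at 100 nM, and 2 did so at 400 nM. One of these 2 went lower from 100 to 400 nM, from a mean of 147 to 100.3 (-0.49 ± 0.18, adjusted p = 0.0209), where the brightest rose.

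Probe sets disagreed for AMOTL2, LATS2 and TEAD1. Only the brightest AMOTL2 probe set carried the large falls, while another stayed between 0.03 and 0.09 in the 4 comparisons at 100 and 400 nM and the third changed by -0.24 at 400 nM in SJSA-1. For LATS2 a second probe set rose by 0.36 at 400 nM in U2-OS and fell in SJSA-1, at -0.37 and -0.67. The dimmest LATS2 probe set passed the filter through U2-OS at 400 nM alone, at a mean of 12.8, and its other group means, at most 11.2, lay under the dim limit, so its calls as higher in all 4 comparisons, included in the counts of rises above, are not read. For TEAD1 1 of 3 probe sets fell at 100 nM in U2-OS, and another rose at 400 nM by 0.38 in U2-OS and 0.23 in SJSA-1. YAP1 is read by 8 probe sets, of which 0 fell at 100 nM in U2-OS, 2 at 400 nM in U2-OS, and 3 at each of these doses in SJSA-1. The largest YAP1 changes, -0.57 at 100 nM and -0.62 at 400 nM in SJSA-1, came from 1 probe set. Of the 30, 8 have a name ending in s_at or x_at, by which the manufacturer marks probes that can match several transcripts, and the main probe sets of CCN2, FRMD6 and TEAD1 are among them. ANKRD1 and FJX1 have a single probe set each, so no other value checks them.

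**Figure D4:**
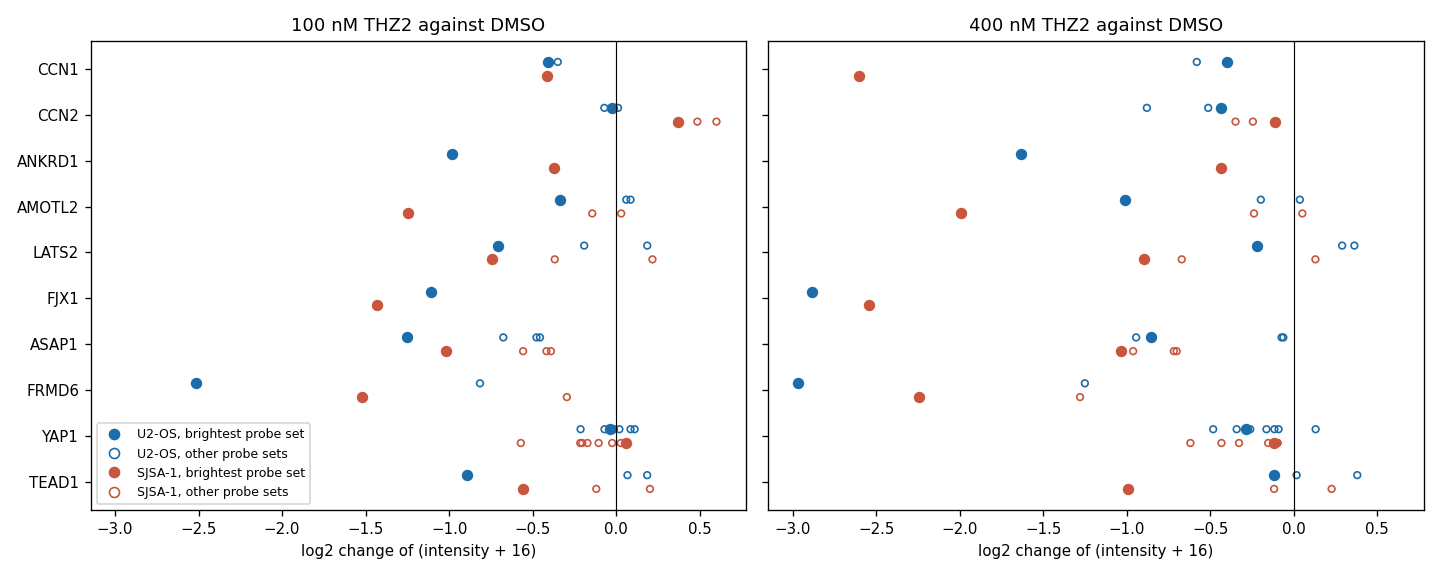
Change at 100 nM and at 400 nM THZ2 against DMSO (difference of log2(intensity + 16), limma) for all 30 probe sets of the 10 genes; filled points are the brightest probe set of a gene and open points its others, blue for U2-OS and red for SJSA-1. The probe sets of CCN1 lie close together, whereas those of AMOTL2, LATS2 and TEAD1 spread to both sides of 0 or close to it.

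Members of the wider pathway lists fell and rose, and their counts are to be read against the shares of all genes. These were 22.2% lower and 19.8% higher at 100 nM and 25% and 48.4% at 400 nM in U2-OS, and 25.1% and 24.4%, then 24.9% and 41.4%, in SJSA-1. A list of 22 YAP and TEAD targets, which contains 7 of the 10 genes, had 10 members that fell and 2 that rose at 100 nM in U2-OS, with a median of -0.08. At 400 nM in U2-OS 8 fell and 7 rose (median 0.05). In SJSA-1 10 fell and 4 rose at 100 nM (median -0.18), and 12 fell and 3 rose at 400 nM (median -0.34). Among its 15 members outside the 10 genes, 4 fell and 2 rose at 100 nM in U2-OS, 2 fell and 7 rose at 400 nM in U2-OS, 4 fell and 3 rose at 100 nM in SJSA-1, and 6 fell and 3 rose at 400 nM in SJSA-1. Their medians were 0.0049, 0.28, 0.041 and -0.16, beside medians of all genes of 0.058, 0.15, 0.057 and 0.10. In U2-OS at 100 nM and in SJSA-1 at 100 nM the counts of these 15 lay near the shares of all genes. DOCK5, an activator of the GTPase RAC1, fell at 100 nM, at -1.01 ± 0.13 in U2-OS and -0.77 ± 0.13 in SJSA-1. The transcription factor gene FOXF2 fell at 400 nM, at -0.73 ± 0.11 and -1.03 ± 0.11. F3, tissue factor, fell, at -0.80 ± 0.11, in SJSA-1 at 100 nM, but rose in U2-OS at 400 nM by 0.39 (adjusted p = 0.00234). That rise was lost with spike-in centring, at 0.018. MYOF, a ferlin of membrane repair, rose by 1.23 ± 0.13 in U2-OS at 400 nM, but fell in SJSA-1 at that dose, at -0.37 (adjusted p = 0.0148). That fall was lost with median centring, at -0.11. IGFBP3, which binds insulin-like growth factors, rose by 0.51 ± 0.10 in SJSA-1 at 100 nM, a call lost with spike-in centring, at 0.067.

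Another list of 10 held YAP1, WWTR1, TEAD1 to TEAD4 and VGLL1 to VGLL4. Of these, 2 fell and 1, VGLL3, rose at 100 nM in U2-OS. Falls and rises numbered 2 and 2 at 400 nM in U2-OS, 3 and 2 at 100 nM in SJSA-1, and 3 and 3 at 400 nM in SJSA-1. Against 22.2%, 25%, 25.1% and 24.9% of all genes for falls and 19.8%, 48.4%, 24.4% and 41.4% for rises, these counts lay near or below the background. Their medians were 0.0064, 0.016, 0.095 and -0.16 in that order. WWTR1, which encodes TAZ, was at 0.11 ± 0.079 in U2-OS at 100 nM (adjusted p = 0.267) and rose by 0.28 ± 0.079 in SJSA-1 (adjusted p = 0.00465). The other TEAD genes moved apart. TEAD3 fell at 100 nM, at -0.46 ± 0.10 in U2-OS and -0.51 ± 0.10 in SJSA-1, TEAD4 fell in SJSA-1, at -0.57 ± 0.10 at 100 nM and -0.71 ± 0.10 at 400 nM, and TEAD2 rose at 400 nM by 0.90 ± 0.093 in U2-OS and 0.61 ± 0.093 in SJSA-1. With arrays centred on the spike-ins WWTR1 in SJSA-1 at 100 nM and TEAD2 in SJSA-1 at 400 nM turned to -0.19 and -0.27, and neither passed.

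Hippo kinases and upstream regulators made a list of 27 genes, 3 of them among the 10. At 100 nM 13 fell and 5 rose in U2-OS, and 14 fell and 5 rose in SJSA-1, with medians of -0.27 and -0.17, against 22.2% and 25.1% of all genes for falls and 19.8% and 24.4% for rises. At 400 nM 8 fell and 11 rose in U2-OS, and 12 fell and 5 rose in SJSA-1, with medians of -0.08 and -0.16, against 25% and 24.9% for falls and 48.4% and 41.4% for rises. Of its 24 members outside the 10 genes, 10 fell and 5 rose at 100 nM in U2-OS, and 11 and 5 in SJSA-1. At 400 nM 6 of these 24 fell and 11 rose in U2-OS, and 9 fell and 5 rose in SJSA-1. Their medians were -0.195 in U2-OS and -0.11 in SJSA-1 at 100 nM, and 0.19 and -0.11 at 400 nM. AJUBA, a LIM protein that binds LATS kinases, fell, at -1.29 ± 0.091 in SJSA-1 at 100 nM and at 400 nM at -1.72 ± 0.091 in U2-OS and -1.79 ± 0.091 in SJSA-1. TAOK3, a kinase of the family that activates STK3 and STK4, fell at 100 nM, at -0.81 ± 0.11 in U2-OS and -0.92 ± 0.11 in SJSA-1. WWC1, the scaffold KIBRA, did so too, at -0.62 ± 0.095 and -0.84 ± 0.095. LATS1, the paralogue of LATS2, rose at 100 nM by 0.44 ± 0.085 in U2-OS and 0.60 ± 0.085 in SJSA-1, where LATS2 fell. PTPN14, a phosphatase that holds YAP1 back and also a listed target, rose at 100 nM by 0.32 ± 0.098 in U2-OS and 0.99 ± 0.098 in SJSA-1. With arrays centred on the spike-ins the median of all genes moved to -0.32 at 100 nM in U2-OS and -0.23 in SJSA-1. On that scale LATS1 stood at 0.12 and 0.24 and PTPN14 in U2-OS at 0.015, none of which passed.

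The CCN family has 6 members. At 100 nM 1 fell and 2 rose in each line, at 400 nM 3 fell and 2 rose in U2-OS, and 1 fell and 3 rose in SJSA-1. With 6 genes these counts only describe the family, beside shares of all genes of 22.2% to 25.1% for falls and 19.8% to 48.4% for rises. The medians were 0.058 and 0.053 at 100 nM, and -0.19 and 0.078 at 400 nM. CCN3 rose in U2-OS by 0.46 ± 0.11 at 100 nM and 2.05 ± 0.11 at 400 nM, and in SJSA-1 by 0.53 ± 0.11 and 0.51 ± 0.11. With spike-in centring its rise in U2-OS at 400 nM alone kept its call, and in SJSA-1 at 400 nM it stood at -0.21. CCN1, CCN2 and CCN3, 3 secreted proteins of 1 family, thus had different patterns in the same cultures.

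The genes with the most similar pattern were sought over the 6 changes against DMSO, which share their DMSO arrays within a line, by the root mean square difference. SPRY2, an inhibitor of receptor kinase signalling, was nearest to CCN1 at 0.151, followed by the homeobox gene DLX2 at 0.292. METAP2, a methionine aminopeptidase, was nearest to CCN2 at 0.0837 and the small heat shock protein gene HSPB8 next at 0.095. ELOVL6, an enzyme of fatty acid elongation, was nearest to ANKRD1 at 0.105 and GIN1 next at 0.126. SETD5 at 0.0959 and the nuclear pore gene POM121 at 0.106 were nearest to AMOTL2. FAM53B at 0.0803 and the ubiquitin-conjugating enzyme gene UBE2R2 at 0.085 were nearest to LATS2, and TEAD1 was the nearest of the 10 genes to it at 0.142. For TEAD1 the nearest were DLGAP4 at 0.0965 and PLPP1 at 0.1. TP53RK at 0.227 and TYW2 at 0.242 were nearest to FJX1, and GOPC at 0.233 and ZNF7 at 0.253 to FRMD6. MAP3K14, the kinase NIK, at 0.0981 and OPA3 at 0.099 were nearest to ASAP1. ACTR3, a subunit of the actin-branching ARP2/3 complex, at 0.0356 and the nucleolar NPM1 at 0.037 were nearest to YAP1. For each of the 10 genes, these nearest genes lay outside the 10.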

How the data were processed

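RNA of 24 cultures or repeats was read on PrimeView arrays. As deposited, each value is a linear intensity, and the submitters' processing notes name MAS5 and RMA without saying which made them; build and versions are not given in the sources used here. Of 49372 probe sets, 44988 name 1 gene. Values became log2(intensity + 16), and each gene was represented by its brightest probe set on average. A gene stayed in where a group mean reached 12.73, the 30th percentile, as 16175 of 18132 did, all 10 genes among them.

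The 8 groups were fitted together (16 residual degrees of freedom) with limma 3.58.1 in R 4.3.3 (empirical Bayes with an intensity trend) and tested on simulated data. p-values were adjusted by Benjamini-Hochberg over all genes in each contrast. With 3 arrays against 3, the smallest two-sided p of an exact permutation test is 0.1. The genes, lists and tests were chosen with earlier results of these data known. Named were the 10 genes, up to 3 other genes per list, comparison and direction with the largest called changes, of which the text gives a part, and the 2 genes nearest in pattern. Alternatives changed the scaling, filter, probe sets, constant, trend, replicate block and arrays. Promoter windows came from RefSeq (GRCh38.p14), found for 7 of the 10 genes. A planned comparison of protein sequences was not made.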

Additional observations from a re-analysis of the deposited data

Results flagged for a closer look

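In 9 cases the effect of a dose differed between the lines by the contrast of the effects in limma, given as SJSA-1 minus U2-OS. At 100 nM these were ANKRD1 at 0.61 ± 0.12 (adjusted p = 0.000349), AMOTL2 at -0.91 ± 0.16 (adjusted p = 0.000154) and FRMD6 at 0.99 ± 0.14 (adjusted p = 5.55e-06). At 400 nM they were CCN1 at -2.21 ± 0.14 (adjusted p = 6.12e-13), ANKRD1 at 1.20 ± 0.12 (adjusted p = 4.11e-09) and AMOTL2 at -0.99 ± 0.16 (adjusted p = 1.72e-05). LATS2 stood at -0.68 ± 0.18 (adjusted p = 0.00247), FRMD6 at 0.72 ± 0.14 (adjusted p = 0.000118) and TEAD1 at -0.88 ± 0.19 (adjusted p = 0.000472). All are values of the brightest probe sets, and at 400 nM the other FRMD6 probe set gave -1.25 in U2-OS and -1.28 in SJSA-1. For ANKRD1 the SJSA-1 means at both doses lay under the dim limit of 12.73, so only a bound holds there, and its 100 nM call was lost with a constant of 1 (0.34, adjusted p = 0.198). Of all genes 16.9% differed at 100 nM and 45.9% at 400 nM, and the count of these genes at 400 nM lay near that share.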

How the results depend on the processing

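Of 3280 values of single genes under the alternatives, 3162 kept direction and side of the threshold, 74 passed in neither setting but changed sign, 17 lost a call, 26 gained one and 1 called value reversed, CCN2 in SJSA-1 at 100 nM with spike-in centring (-0.16). FJX1, the 1 gene that fell in SJSA-1 at 25 nM, became 0 genes with spike-in centring and with SJSA-1 arrays alone, and FRMD6 became a call in U2-OS at 25 nM (1 gene) with U2-OS arrays alone. With spike-in centring 1 gene differed between the lines at 100 nM. Leaving out 1 array in turn gave 0 to 1 for SJSA-1 at 25 nM, 7 to 8 for U2-OS at 100 nM and 8 to 9 for SJSA-1 at 400 nM. The replicate numbers were not taken as pairing, since not every pair of same-numbered arrays had correlated deviations above 0.1, with 9 of 18 pairs above it in U2-OS (-0.0845 to 0.327) and 8 of 18 in SJSA-1 (-0.634 to 0.42). The U2-OS arrays hint at pairing all the same, with a median of 0.122 for the same number against -0.0741 for other numbers and 9 of 12 arrays closest to their own number, against 5 of 12 in SJSA-1. The replicate block added calls for YAP1 in U2-OS at 400 nM (-0.28, adjusted p = 0.0268) and for the CCN2 line difference at 100 nM (0.39, adjusted p = 0.0423) and 400 nM (0.32, adjusted p = 0.0488). In U2-OS at 400 nM 10 genes fell with U2-OS arrays alone and 9 with quantile normalization, and in SJSA-1 at 400 nM 10 fell with spike-in centring. Over all genes at 100 nM in SJSA-1, 4055 fell and 3940 rose, which became 3002 and 9698 with median centring and 4847 and 83 with spike-in centring. In U2-OS these were 3598 and 3199, then 2805 and 7593, and 7010 and 101. The causes were not tested. ANKRD1 in SJSA-1 lay near background, and 3 arrays per group limit every interval.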

Other observations

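The 3 SJSA-1 DMSO arrays spread widely for YAP1 (512, 259.6 and 391) and TEAD1 (635, 523 and 391), while CCN2 read 2149.8, 2120.2 and 2165 on them. The poly-A spike-ins of the 3 SJSA-1 arrays at 400 nM averaged 7.70, 8.84 and 7.18 on the log2 scale. CCN1 held the same deposited value, 2385, on 2 of the 3 SJSA-1 arrays at 25 nM.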
